A study of Mus musculus with 6 samples.

Results

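The apoptosis, necroptosis and TRAF signalling genes examined here were 38 mouse genes, chosen by name from 49568 gene symbols in a table of RNA-sequencing counts. They cover the BCL2 family, the apoptosome, caspases, the death receptor arm, the necroptosis kinases, the inhibitor of apoptosis proteins (IAPs) and TRAF adaptors. All 38 symbols were found, and 37 passed the filter on low counts that left 19199 genes to test.

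The counts came from whole lungs of 4-month-old female mice on a C57BL/6 background, with 3 TNF+ lungs and 3 TNF- lungs. TNF+ mice (TNF-Tg) carry the human TNF gene as a transgene, all from the same line, and develop inflammatory-erosive arthritis and pulmonary hypertension. TNF- mice are their wildtype littermates. Which promoter and which cells drive the transgene is not given in the sources used here.

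When TNF binds its receptor TNFR1, the adaptor TRADD, the kinase RIPK1, TRAF2 and the cellular IAPs assemble a complex that switches on NF-kB and survival genes. If that complex fails, RIPK1 and FADD activate caspase-8, which kills the cell by apoptosis unless its relative cFLIP holds it back, and where caspase-8 is blocked RIPK3 and MLKL rupture the membrane in necroptosis. Apoptosis also runs through mitochondria, where BH3-only proteins free BAX and BAK1 from anti-apoptotic BCL2 proteins, and released cytochrome c assembles the APAF1 apoptosome.

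Total counts ran from 25396923 to 32529408 per lung, and the 38 genes together held 0.135% to 0.197% of them. A pair of libraries stood apart from the rest. TNF+ replicate 1 had 5.22% of its counts on the gene Gm42418 (0.0774% to 0.274% in the others), and in TNF- replicate 1 squamous epithelium genes summed to 3458 CPM (counts scaled by library size, as used throughout) against at most 7.14 elsewhere, and skeletal muscle genes to 1404 CPM against at most 38.7. Adipocyte genes also varied among TNF+ lungs, at 7.29, 4.65 and 110 CPM in replicates 1 to 3, against 57.6 to 130 CPM in TNF- lungs. Mouse Tnf had 106, 213 and 405 raw counts in TNF+ mice, against 16, 14 and 35 in TNF- mice (log2 fold change 3.62, SE 0.46, adjusted p = 0.000471). The human transgene is not a row of the table, and how many of its reads were counted as mouse Tnf was not tested.

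Most of the genes that differed between the genotypes were higher in TNF+ lungs. Of the 37 genes tested, 21 rose and 1 fell at an adjusted p under 0.05 (edgeR quasi-likelihood test, Benjamini-Hochberg over all 19199 genes), and 15 did not pass. The called share was 59.5%, against 47.4% of all genes tested, and the split was 56.8% higher and 2.7% lower against 24.0% higher and 23.4% lower over all genes. Over the 37 genes the median log2 value was 0.51, and over all genes it was 0.03. Normalized counts of the 2 genotypes did not overlap for 26 of the 37, beside 58.7% of all genes. The largest rises were in Bcl2a1b, Birc3, Bcl2a1a, Bcl2a1d, Bid, Fasl and Birc2, and the only fall was in Bcl2l1. In bulk tissue, more cells of a type and more RNA per cell cannot be told apart.

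Cell type markers differed between the same lungs, in both directions. All 8 macrophage markers were higher, summing to 3592 to 5571 CPM in TNF+ lungs and 393 to 418 CPM in TNF- lungs (1953 to 2414 against 384 to 407 CPM without Marco, the marker with the most counts in TNF+ lungs), with 4 of 6 B cell markers and 4 of 5 plasma cell markers also higher. Of 8 T cell markers 6 were higher, and their sum of 365 to 529 against 59.1 to 109 CPM came mostly from Cd4 in TNF+ lungs (267 to 407 against 9.23 to 18.4 CPM), without which it was 97.3 to 122 against 49.9 to 90.2 CPM. Of other immune lists, 5 of 8 neutrophil markers were lower and 1 higher (66.5 to 103 against 93.6 to 158 CPM), 4 of 7 natural killer cell markers were lower and 1 higher, and 3 of 4 tested mast cell and basophil markers were lower. All 5 alveolar type 1 markers were lower (997 to 1246 against 2896 to 3135 CPM), as were 5 of 5 club and ciliated airway markers (4357 to 5629 against 10109 to 20402 CPM), 5 of 6 endothelial (the other, Emcn, was higher), 4 of 5 fibroblast, 3 of 4 smooth muscle and 4 of 4 cardiac muscle markers, while 2 of 6 alveolar type 2 markers were lower (15558 to 19923 against 22226 to 26768 CPM). All 5 erythroid genes were lower, at 8166 to 11971 CPM against 33523 to 61051 CPM. No marker was at 0 in all lungs, and the part of these shifts in the values of single genes was not tested.

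**Figure D1:**
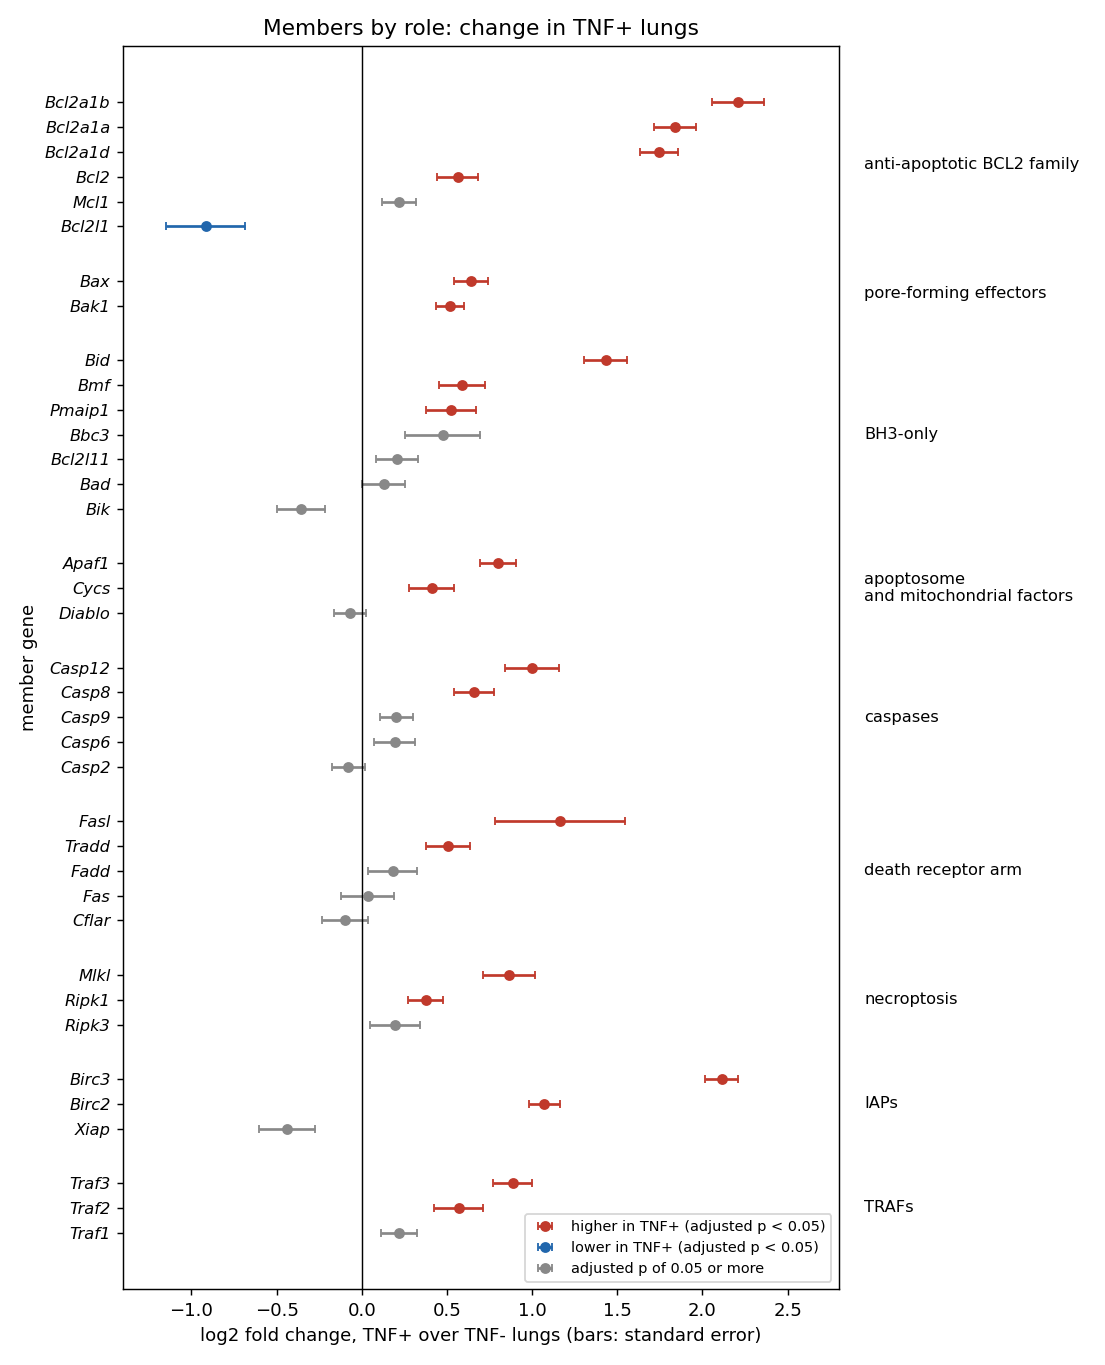
Log2 fold change of each tested gene between TNF+ and TNF- lungs (x axis), with genes on the y axis grouped by role and error bars of 1 standard error from the edgeR fit, n = 3 lungs per genotype. The 21 genes called higher lie to the right of 0, Bcl2l1 is the only called gene to the left, and the median over the 37 genes was 0.51.

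The anti-apoptotic BCL2 proteins hold BAX and BAK1 in check. Of 6 such genes, the 3 Bcl2a1 paralogs and Bcl2 rose, Bcl2l1 fell, and Mcl1 did not pass the test. Bcl2a1 encodes A1, an NF-kB target best known from blood cells, and the mouse genome carries near-identical copies on chromosome 9 that set a limit on how reads can be assigned. Bcl2a1d lies at chr9:88723285-88731914 on the minus strand, Bcl2a1a at chr9:88956900-88962419 and Bcl2a1b at chr9:89199209-89207827, both on the plus strand (GRCm38, GENCODE M21). The coding sequences of 519 bases differ at 12 positions among the 3 copies, by 6 to 11 bases in a pair, or 97.9% to 98.8% identity. The first 60 coding bases are shown because they hold 6 of those 12 positions, set in capitals, and so show how little separates the copies.
Bcl2a1a: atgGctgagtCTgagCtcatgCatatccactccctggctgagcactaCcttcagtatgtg
Bcl2a1b: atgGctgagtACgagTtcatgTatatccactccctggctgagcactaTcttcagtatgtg
Bcl2a1d: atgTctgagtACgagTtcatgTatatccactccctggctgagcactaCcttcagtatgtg
Of all exonic windows of 100 bases, 43.5% of Bcl2a1a, 56.8% of Bcl2a1b and 54.7% of Bcl2a1d occur word for word in another gene, so reads from those stretches cannot be placed in 1 gene.

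Each of the Bcl2a1 copies was several-fold higher in TNF+ lungs. Bcl2a1a had 872, 853 and 789 normalized counts in TNF+ lungs against 233, 209.9 and 259 in TNF- lungs (838 ± 43.2 and 234 ± 24.8, SD, n = 3), 3.58-fold higher (log2 fold change 1.84, SE 0.12, adjusted p = 2.15e-05). For Bcl2a1b the values were 473, 400.2 and 376 against 86.0, 94.9 and 88.9, a 4.62-fold rise (log2 2.21, SE 0.15, adjusted p = 2.49e-05). Bcl2a1d, the copy with the most counts, stood at 1021, 971 and 913 against 283, 271 and 311, which is 3.36-fold higher (log2 1.75, SE 0.11, adjusted p = 1.75e-05). None of the copies overlapped between the genotypes. With the 3 copies added together, so that the split of counted reads among them drops out, the log2 fold change was 1.86 (adjusted p = 8.02e-06). The sum leaves out Gm29094, a gene annotated on the same strand over part of Bcl2a1b, which had 0 counts in all 6 lungs, and whether reads in the shared stretch were dropped in counting is not given in the sources used here. Within a lung, Bcl2a1a counts were 0.854 to 0.879 of those of Bcl2a1d in TNF+ lungs and 0.774 to 0.834 in TNF- lungs, and Bcl2a1b counts were 0.412 to 0.464 and 0.286 to 0.350 of them.

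Bcl2l1 encodes BCL-XL, an anti-apoptotic protein that is also prominent in maturing red cells, and lies at chr2:152780668-152831728 on the minus strand. It had 2820.4, 3176 and 2191 normalized counts in TNF+ lungs and 4361, 3981 and 7104 in TNF- lungs. TNF- replicate 3 stood well above the other TNF- lungs, yet the genotypes did not overlap. The gene was 1.89-fold lower in TNF+ lungs (log2 fold change -0.92, SE 0.23, adjusted p = 0.0128), and with 1 lung left out at a time the log2 value lay between -1.08 and -0.62, with the highest adjusted p at 0.0459. The erythroid sum given above did not overlap between the genotypes either, so it and genotype cannot be told apart in these lungs, and its part in the Bcl2l1 values was not tested.

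Bcl2, the founding member of the family, rose 1.48-fold, from 570.4 ± 33.4 to 844 ± 99.5 normalized counts (SD, n = 3, adjusted p = 0.00588). Mcl1, a short-lived guard protein that many myeloid cells rely on, had 10889 to 11848 normalized counts in TNF+ lungs and 9382 to 10065 in TNF- lungs (log2 fold change 0.22, SE 0.10, adjusted p = 0.107).

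The make-up of these 6 genes differed, with a larger part from the Bcl2a1 copies and a smaller one from Bcl2l1 in TNF+ lungs. Expressed as CPM per kilobase of exon, so that genes of different length can be set side by side, the Bcl2a1 copies made up 39.1% to 40.4% of the family's summed level in TNF+ lungs and 14.7% to 15.8% in TNF- lungs. Bcl2l1 held 7.53% to 10.4% against 19.9% to 29.0%. Mcl1 was the largest share in every lung, at 48.0% to 52.1% against 55.1% to 63.0%. The genotypes did not overlap in any of these shares. However, levels of the Bcl2a1 copies are too low if reads that fit several copies were dropped in counting. The study's methods name uniquely mapped transcripts for the differential expression, but the counting setting for such reads is not given in the sources used here.

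**Figure D2:**
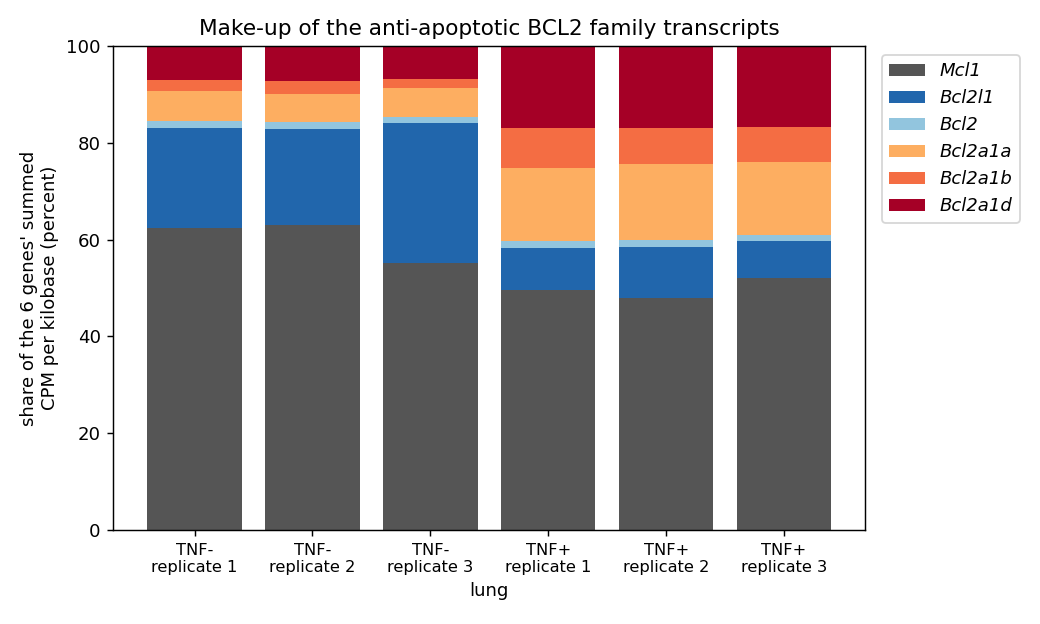
Share of each anti-apoptotic gene in the summed level of the 6 genes, in percent of CPM per kilobase of exon (y axis), as 1 stacked bar for each of the 6 lungs (x axis). The Bcl2a1 copies together reach 39.1% to 40.4% in TNF+ lungs and 14.7% to 15.8% in TNF- lungs.

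Over all 38 genes, Mcl1 had the highest level per kilobase in both genotypes, at 105 to 115 CPM per kilobase in TNF+ lungs and 90.8 to 97.4 in TNF- lungs. Bcl2l1 came next in TNF- lungs and was at rank 7 in TNF+ lungs. In TNF+ lungs ranks 2, 3 and 4 went to Bcl2a1d, Bcl2a1a and Birc3, which held ranks 7, 10 and 18 in TNF- lungs. Hrk was lowest in both.

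Of the 3 IAP genes, Birc2 and Birc3 rose and Xiap did not pass the test. Birc2 and Birc3 encode cIAP1 and cIAP2, the ubiquitin ligases that keep RIPK1 in its survival role, and Xiap encodes an inhibitor that binds caspases directly. Birc3, an NF-kB target at chr9:7848699-7873186 on the minus strand, lies 11634 bases from Birc2 at chr9:7818227-7837064. Birc3 had 3920.0, 3697 and 4272 normalized counts in TNF+ lungs against 869, 936 and 944 in TNF- lungs (3963 ± 290.1 and 916 ± 41.4, SD, n = 3), a 4.33-fold rise (log2 fold change 2.11, SE 0.10, adjusted p = 4.99e-06). Birc2 had 2404, 2143 and 2042 against 1059, 1066 and 1007 (2.10-fold, log2 1.07, SE 0.09, adjusted p = 6.76e-05). Both genes were well apart between the genotypes in every lung. Within each lung, Birc3 counts were 1.63, 1.73 and 2.09 times those of Birc2 in TNF+ lungs and 0.820, 0.879 and 0.937 times in TNF- lungs. This ratio is not adjusted for gene length, and its values did not overlap between the genotypes.

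Xiap had 1904, 1564 and 1738 normalized counts in TNF+ lungs and 2624, 2659 and 1764 in TNF- lungs. TNF- replicate 3 overlapped the TNF+ lungs, and the difference did not pass the test (log2 fold change -0.44, SE 0.16, adjusted p = 0.0575). Without that lung the log2 value was -0.61 and the adjusted p 0.0033. Of 16 alternative fits 7 called Xiap lower, among them that fit and DESeq2 on all lungs.

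The promoters of Birc3 and Traf3 are printed to show what the search for NF-kB motifs ran on, as Birc3 had the largest rise outside the Bcl2a1 copies and Traf3 rose with a match. They cover 250 bases before to 50 after the start, on the gene's strand (RefSeq, GRCm38.p6, Birc3 at chr9:7873121-7873420 and Traf3 at chr12:111166120-111166419), and capitals mark a match to the NF-kB consensus.
Birc3: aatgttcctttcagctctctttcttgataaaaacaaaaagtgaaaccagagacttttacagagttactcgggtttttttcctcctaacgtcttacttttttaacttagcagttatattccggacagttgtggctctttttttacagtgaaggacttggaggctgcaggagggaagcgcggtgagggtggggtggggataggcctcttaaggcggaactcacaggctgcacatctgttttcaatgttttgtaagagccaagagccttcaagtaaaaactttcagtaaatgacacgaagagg
Traf3: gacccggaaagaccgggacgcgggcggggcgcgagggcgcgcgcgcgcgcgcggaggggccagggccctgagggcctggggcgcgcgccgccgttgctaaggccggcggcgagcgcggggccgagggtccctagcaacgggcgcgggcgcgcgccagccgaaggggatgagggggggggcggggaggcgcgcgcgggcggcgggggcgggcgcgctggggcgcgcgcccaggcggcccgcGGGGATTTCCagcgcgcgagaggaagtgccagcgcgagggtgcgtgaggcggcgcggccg
Of the 38 genes, 35 had a promoter in the table. The NF-kB consensus, on either strand, was found in 4 of them (11.4%), Bbc3, Bcl2l1, Bmf and Traf3, in 5.14% of 27025 genes and in 6.41% of the 12148 genes that were also tested for expression. Of genes with a promoter, 2 of the 19 called higher had it and 2 of the 15 not called or lower. A gene was counted if any of its promoter windows matched, and Bbc3, Bcl2l1 and Bmf each had several windows. Another motif, GGANTTTCC on either strand, was found in 0 of 35 and in 1.45% of all genes. These letters in a window of this length describe the sequence only.

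TRAF proteins are adaptors that link TNF receptors to kinases and ubiquitin ligases. Traf3 and Traf2 rose, while Traf1 did not pass the test. Traf3, a brake on the non-canonical NF-kB pathway at chr12:111166370-111267153, had 2191, 2024 and 2681 normalized counts in TNF+ lungs and 1208, 1256 and 1267 in TNF- lungs (1.85-fold, log2 fold change 0.89, SE 0.12, adjusted p = 0.000526). Traf2, which brings the cellular IAPs to TNFR1, had 831, 983 and 1215 against 683, 657 and 701 (1.48-fold, log2 0.57, SE 0.14, adjusted p = 0.012). The TNF+ lungs spread more widely than the TNF- lungs for Traf2, and all lay above them. Traf1, an adaptor that partners TRAF2, had 2165 to 2304 normalized counts in TNF+ lungs and 1651 to 2104 in TNF- lungs (log2 0.22, SE 0.11, adjusted p = 0.126), which did not overlap.

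In the death receptor arm, Tradd and Fasl rose and Fadd, Fas and Cflar did not pass the test. Tradd, the first adaptor on TNFR1, had 477, 490.2 and 540.0 normalized counts in TNF+ lungs against 347, 315 and 399 in TNF- lungs (1.42-fold, log2 fold change 0.51, SE 0.13, adjusted p = 0.0139). Fadd, the adaptor that carries caspase-8, had 535, 539.8 and 585 against 571, 407 and 485 (log2 0.18, SE 0.14, adjusted p = 0.325), and the genotypes overlapped. Cflar encodes cFLIP and had 4111, 3886 and 4171 against 5209, 4136 and 3689 (log2 -0.10, SE 0.13, adjusted p = 0.572). The TNF- lungs spanned the TNF+ lungs for Cflar, and without TNF- replicate 1 its log2 value was 0.028. Fas, the death receptor for FASL, had 959 to 1134 normalized counts in TNF+ lungs and 816 to 1239 in TNF- lungs (log2 0.04, SE 0.16, adjusted p = 0.865).

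Fasl, the ligand that cytotoxic lymphocytes use to kill, was low throughout. It had 52, 27 and 37 raw counts in TNF+ lungs and 19, 21 and 22 in TNF- lungs, or 68.6, 27.9 and 34.9 against 18.2, 20.1 and 19.5 normalized counts. The fitted rise was 2.24-fold (log2 fold change 1.16, SE 0.38, adjusted p = 0.0357) and, of the fits with 1 lung left out, moved most without TNF+ replicate 1, where the log2 value was 0.67 and the adjusted p 0.15. Without both libraries that stood apart it was 0.62 (adjusted p = 0.298). Both T cells and natural killer cells make FASL. Of 8 T cell markers 6 were higher, while Cd3e and Cd2 did not pass the test. Cd8a among them stood at 10.8 to 15.1 CPM in TNF+ lungs and 6.21 to 8.44 CPM in TNF- lungs (log2 0.86, adjusted p = 0.00621). Natural killer cell markers summed to 27.3 to 30.2 against 44.8 to 63.5 CPM. Among these the cytotoxic genes Gzma (log2 -3.31, adjusted p = 4.16e-05) and Prf1 (log2 -1.23, adjusted p = 0.00178) were lower, although Eomes was higher (log2 1.16, adjusted p = 0.00357). Their part in the Fasl values was not tested.

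Casp8 and Casp12 rose among the 5 caspases, and Casp2, Casp6 and Casp9 did not pass the test. Casp8 encodes the initiator of death receptor apoptosis, which also restrains necroptosis. It had 1614, 1331 and 1575 normalized counts in TNF+ lungs and 863, 1057 and 938 in TNF- lungs (1.58-fold, log2 fold change 0.66, SE 0.12, adjusted p = 0.0023). Casp12, an inflammatory-type caspase linked to the endoplasmic reticulum and located at chr9:5345430-5373032, had 534, 462 and 559.8 against 228, 241 and 309 (2.00-fold, log2 1.00, SE 0.16, adjusted p = 0.00129). No lung of either genotype overlapped the other for these genes. Casp8 counts were 0.342 to 0.393 of those of Cflar, its inhibitor, in TNF+ lungs and 0.166 to 0.256 in TNF- lungs. This ratio is not adjusted for gene length. Per kilobase of exon, Casp8 averaged 17.2 CPM and Cflar 10.6 CPM in TNF+ lungs, against 10.9 and 11.3 CPM in TNF- lungs. The log2 fold changes of Casp2, Casp6 and Casp9, the stress, executioner and apoptosome caspases, lay between -0.08 and 0.20 with adjusted p from 0.12 to 0.533.

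Necroptosis runs from RIPK1 through RIPK3 to MLKL. Mlkl and Ripk1 rose and Ripk3 did not pass the test. Mlkl, the pore-forming executioner at chr8:111311797-111338177, had 388, 456 and 459 normalized counts in TNF+ lungs and 202, 249 and 264 in TNF- lungs (1.82-fold, log2 fold change 0.87, SE 0.15, adjusted p = 0.00215). Ripk1 had 1061, 1131 and 959 against 788, 865 and 774 (1.30-fold, log2 0.38, SE 0.10, adjusted p = 0.0177). Neither gene overlapped between the genotypes. Ripk3 had 283, 301 and 301 against 239.9, 236 and 298 (log2 0.20, SE 0.14, adjusted p = 0.298), with TNF- replicate 3 within the TNF+ range. The count ratio of Ripk3 to Mlkl, not adjusted for length, was 0.656 to 0.731 in TNF+ lungs and 0.946 to 1.19 in TNF- lungs.

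**Figure D3:**
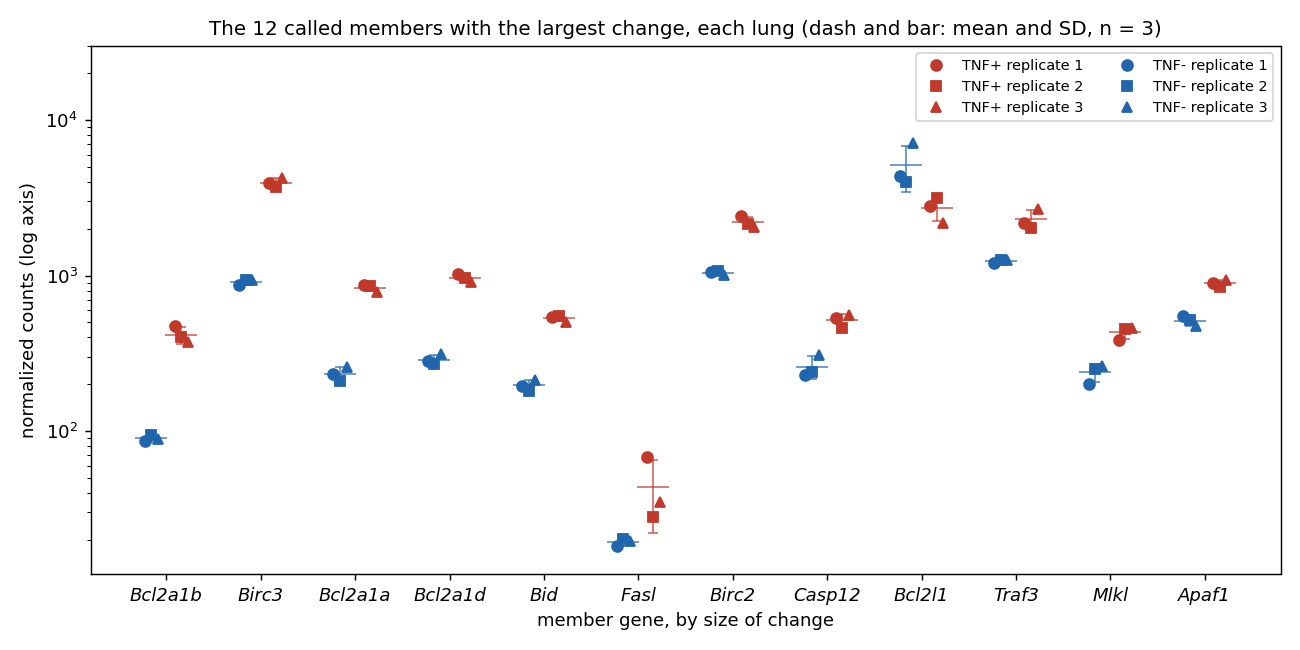
Normalized counts in each lung (y axis, log scale) of the 12 called genes with the largest change (x axis, by size of change), with the dash and bar giving mean and SD, n = 3 lungs per genotype. TNF+ lungs lie above TNF- lungs for 11 genes and below them for Bcl2l1, whose highest value, 7104, is in TNF- replicate 3.

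The effectors that form pores in the mitochondrial outer membrane were both higher. Bax rose 1.56-fold, from 672 ± 41.4 to 1049 ± 64.3 normalized counts (SD, n = 3, adjusted p = 0.00128), and Bak1 1.43-fold, from 1321 ± 40.3 to 1889.9 ± 91.8 (adjusted p = 0.00147).

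BH3-only proteins sense damage and trigger those effectors. Of 8 such genes, Bid, Bmf and Pmaip1 rose, 4 did not pass the test and Hrk could not be tested. Bid, which caspase-8 cleaves to carry a death receptor signal to mitochondria, lies at chr6:120891930-120916853 on the minus strand. It had 541, 549 and 506 normalized counts in TNF+ lungs and 196, 181 and 214 in TNF- lungs (2.70-fold, log2 fold change 1.43, SE 0.13, adjusted p = 7e-05). The lungs of each genotype were close together, and far from the other genotype. Of Bid windows of 100 bases, 15.1% lie antisense to exons of Bcl2l13, and whether counting used strand is not given in the sources used here; Bcl2l13 itself had a log2 fold change of -0.16 (adjusted p = 0.412).

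Bmf, released when the cytoskeleton is disturbed, rose by 0.59 on the log2 scale (SE 0.13, adjusted p = 0.0079). Pmaip1 encodes NOXA, a p53 target that neutralises MCL1, and had 414, 354 and 389 normalized counts against 235, 263 and 306 (1.44-fold, log2 0.52, SE 0.15, adjusted p = 0.0186), with no overlap. Bbc3 encodes PUMA, another p53 target, and had 406, 375 and 488 against 315, 211 and 387 (log2 0.47, SE 0.22, adjusted p = 0.113). The genotypes overlapped for Bbc3, and its value turned on single TNF- lungs, with a log2 value of 0.68 (adjusted p = 0.0327) without replicate 3, the highest of them, and 0.26 (adjusted p = 0.303) without replicate 2, the lowest. Bad, Bik and Bcl2l11 (BIM) had log2 fold changes of 0.13, -0.36 and 0.21 with adjusted p of 0.424, 0.0669 and 0.2. Hrk, a BH3-only gene best known from neurons, had 6, 1 and 0 raw counts in TNF+ lungs and 4, 1 and 9 in TNF- lungs, too few to test or to give a fold.

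Released cytochrome c and APAF1 form the apoptosome, and DIABLO frees caspases from the IAPs. Apaf1 had 897, 849 and 931 normalized counts in TNF+ lungs against 548, 518 and 471 in TNF- lungs (1.74-fold, log2 fold change 0.80, SE 0.11, adjusted p = 0.000583). Cycs, which encodes cytochrome c, had 1509.7, 1252 and 1326 against 1041, 1170.2 and 863 (1.33-fold, log2 0.41, SE 0.13, adjusted p = 0.033). Both genes lay higher in every TNF+ lung than in any TNF- lung. For Cycs, 22.6% of windows are shared with processed copies such as Gm10053, which itself was higher (log2 0.40, adjusted p = 0.0359), so the split of reads between them is uncertain. Diablo did not pass (log2 -0.07, adjusted p = 0.576).

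Some calls were lost when lungs were left out, mostly with similar fold changes. Without the pair of libraries that stood apart, 16 of the 37 genes were called, 15 higher and 1 lower. Over all genes that fit called 6064 of 19440, 2689 higher and 3375 lower. Among the 37 genes, the calls of Bmf, Cycs, Fasl, Pmaip1, Ripk1 and Tradd were lost. Bmf missed narrowly, at a log2 value of 0.56 (adjusted p = 0.0578), and kept its call with each single lung left out. Leaving out 1 lung at a time changed the call of 7 genes: Fasl, Pmaip1 and Cycs lost theirs in 4 of the 6 fits and Tradd and Ripk1 in 3, and Bbc3 and Xiap gained one without TNF- replicate 3. With 1 lung left out the log2 value of Ripk1 stayed between 0.32 and 0.42 (highest adjusted p 0.0821), that of Tradd between 0.43 and 0.60 (0.0642), that of Pmaip1 between 0.41 and 0.63 (0.0943) and that of Cycs between 0.30 and 0.51 (0.156). Without both libraries they were 0.31 for Ripk1, 0.49 for Tradd, 0.35 for Pmaip1 and 0.30 for Cycs, with adjusted p of 0.183, 0.091, 0.217 and 0.246. Birc3 lay between 2.04 and 2.16 on the log2 scale with 1 lung left out, Bcl2a1b between 2.07 and 2.26 and Bid between 1.37 and 1.49.

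**Figure D4:**
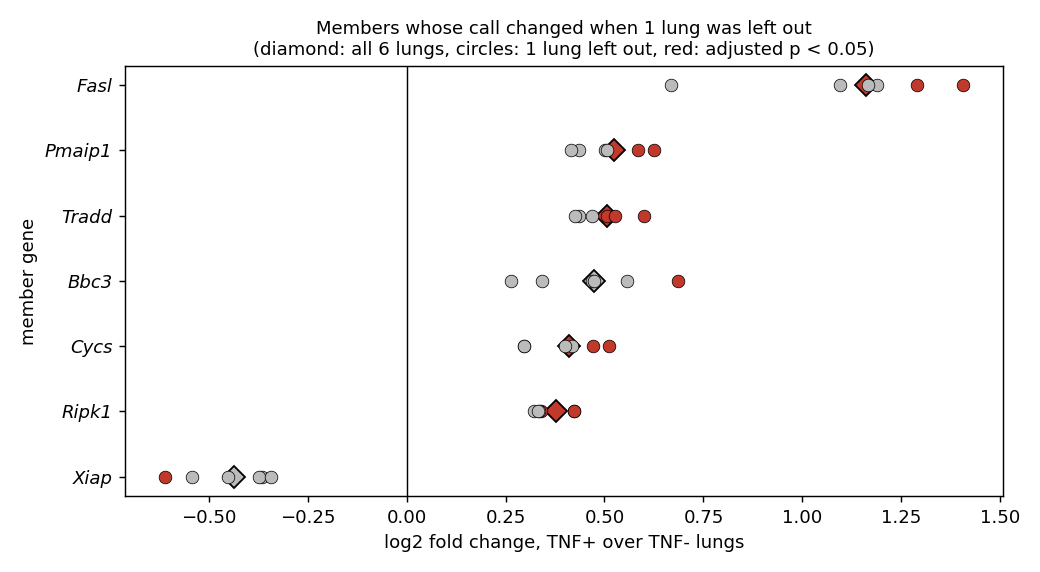
Log2 fold change (x axis) of the 7 genes whose call changed when 1 lung was left out (y axis), with a diamond for all 6 lungs and circles for each fit with 1 lung left out, red where the adjusted p was under 0.05. Fasl spans the widest range, from 0.67 to 1.41.

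A wider list of 82 gene names from the same pathways was read from the same fit to set these genes in context. Of 81 found, 79 were tested and 42 called (53.2%, beside 47.4% of all genes), 31 higher and 11 lower, and the median log2 value was 0.25. The 4 largest rises were in Bcl2l15, Tnfaip3, Tifa and Ikbke. Tnfaip3, which encodes the ubiquitin-editing brake A20, had 7516, 4959.7 and 5162 normalized counts against 416, 434 and 466 (log2 3.74, SE 0.18, adjusted p = 5.76e-06). Tifa, a TRAF6 partner, rose by 2.82 on the log2 scale (SE 0.17, adjusted p = 1.27e-05) and Ikbke, an IKK-related kinase, by 2.64 (SE 0.17, adjusted p = 1.75e-05). Bcl2l15 had 22, 26 and 17 raw counts in TNF+ lungs and 1, 1 and 3 in TNF- lungs, at or below 3 counts, so that its fitted log2 value of 3.83 (SE 0.53, adjusted p = 0.000711) is poorly fixed.

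The receptors differed from each other in value. Tnfrsf1b, which encodes TNFR2, had 7248, 6547 and 6629 normalized counts against 1533, 1595 and 1595 (4.32-fold, adjusted p = 4.99e-06), whereas Tnfrsf1a, which encodes TNFR1, had 4929, 5693 and 4390.5 against 4253, 5077 and 4071 (log2 0.16, SE 0.13, adjusted p = 0.342), and the difference between the receptors was not tested. Zbp1, a nucleic acid sensor that can engage RIPK3, rose by 0.86 on the log2 scale (SE 0.16, adjusted p = 0.00324). The largest falls were in Ripk4, an epithelial kinase of the RIPK family (log2 -1.46, SE 0.13, adjusted p = 7.1e-05), Traf3ip1, a ciliary protein (-1.13, SE 0.16, adjusted p = 0.000681), Ppp1r13l, an inhibitor of p53 (-1.03, SE 0.18, adjusted p = 0.00194) and Sept4, a septin with a pro-apoptotic isoform (-0.70, SE 0.12, adjusted p = 0.002). The ciliated airway markers given above were lower in the same lungs, and their part in the Traf3ip1 values was not tested.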

How the data were processed

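Polyadenylated RNA from 6 lungs was made into stranded libraries and read from 1 end. Per the labels' processing notes, the authors trimmed reads with Trimmomatic 0.36 (the study's methods give another version) and aligned them with STAR 2.5.2b to GRCm38.p5. They deposited raw counts per gene made with featureCounts, whose strand and multi-mapping settings are not given in the sources used here. For its differential expression, the study's methods name uniquely mapped transcripts. Counts were tested in edgeR 4.0.16 (R 4.3.3) with filterByExpr, TMM scaling and the quasi-likelihood F-test of genotype, Benjamini-Hochberg adjusted over 19199 genes, threshold 0.05, two-sided. The study's tool, DESeq2 (1.42.0), and limma-voom (3.58.1) were alternatives. On simulated data the edgeR fit recovered 55 of 94 genes set to an absolute log2 change of 1 and 96 of 106 set to 2. It also called 20 genes that were set to no change, so smaller changes can be missed and some calls can be false. To normalize, each lung's counts were divided by its TMM-scaled library size over the mean of those sizes, and CPM used the same sizes. A total of 3 counts corresponds to 0.0882 to 0.131 CPM. SEs were taken from the log2 fold change and its F statistic. Genes chosen to be given lung by lung were the 12 largest called changes, 10 genes of the TNFR1 and death-inducing complexes (Ripk1, Ripk3, Mlkl, Casp8, Fadd, Tradd, Cflar, Traf2, Birc2 and Birc3), the Bcl2a1 paralogs, untested genes and those whose call changed when 1 lung was left out. Of the wider list, the genes named were the 4 largest rises and falls and 6 chosen genes, some of which are not reported here, with lung values for a few. Genes and lists were chosen with earlier results of these data known, and the erythroid list after marker values were seen. Exon windows, positions and coding sequence came from GENCODE M21 and promoters from RefSeq. No replicates agreed within counting noise, so each was counted as a library of its own.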

Additional observations from a re-analysis of the deposited data

How the results depend on the processing

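Genes called for all genes, the 38 genes and the wider list numbered 9096, 22 and 42, of 19199, 37 and 79 tested. A minimum log2 change of 1 gave 4320, 7 and 20 of the same numbers tested. With that minimum, the called share of the 37 genes was slightly below the share over all genes. A pair of alternatives was chosen after seeing the data. Leaving out both libraries that stood apart gave 6064, 16 and 31. With the erythroid sum as a covariate the fit gave 107, 0 and 0 (edgeR; 2943, 9 and 18 at an unadjusted p under 0.05), but that sum does not overlap between the genotypes. Leaving out 1 lung gave 7347 to 9164, 17 to 22 and 39 to 43. DESeq2 called 22 of the 38 genes, beside 9134 of 23106 genes in all, and limma-voom 21, beside 9032 of 19199. Same-numbered lungs correlated at -0.15, -0.004 and -0.24 in their deviations, so the numbers do not pair lungs, and the replicate block gave 7686, 20 and 41.

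The sign turned for 2 uncalled genes. With 1 lung left out, the log2 value of Cflar ran from -0.21 to 0.028 (above 0 without TNF- replicate 1) and that of Fas from -0.12 to 0.20 (-0.07 without TNF+ replicate 1, -0.12 without TNF- replicate 1). Without both libraries Cflar was at 0.0032 and Fas at -0.20, and with total counts Fas was at -0.00058. The cause was not tested. Xiap was called lower under 7 alternatives, among them DESeq2 (adjusted p = 0.0155). Fasl was not called by DESeq2 (adjusted p = 0.0508), by limma-voom (0.0597) or with the block (0.0725), nor was Cycs with the block (0.0531). With total counts Pmaip1 (0.0504) and Tradd (0.0589) were not called. Of 595 values for single genes, 551 kept direction and side of the threshold; these leave out the erythroid covariate and the minimum log2 change, which were run for counts of calls only. Hrk had too few counts to test.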
